A study of Mus musculus with 28 samples.

Results

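The comparison described here set the cerebellum of newborn Ts1Cje mice against that of newborn euploid mice, and was read from the 4 two-colour arrays on which both animals were at postnatal day 0 (P0), out of 28 arrays in the series. Those 4 arrays were chosen by their source names alone. Each carried RNA from the cerebellum of 1 Ts1Cje mouse and 1 euploid mouse, so 4 Ts1Cje and 4 euploid animals were compared, all labelled as strain B6EiC3SnF1/J A/a. Ts1Cje mice carry a segmental trisomy of the distal part of chromosome 16, from Sod1 to Zbtb21, translocated to the end of chromosome 12, and had Ts1Cje fathers and wild-type mothers. The translocation removed 1 copy of a short stretch of chromosome 12, so a Ts1Cje against euploid difference includes both the extra and the missing segment. According to the series description, a male was always set against a female on the same array, and sex was not given in the sample labels.

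Ts1Cje is a mouse model of Down syndrome, since the triplicated segment holds many genes whose human counterparts lie on chromosome 21. Most granule neurons of the cerebellum are made after birth: their precursors divide in the external granule layer under Sonic hedgehog released by Purkinje cells, and then leave the cycle and migrate inwards. The adult Ts1Cje cerebellum is small, and the question put to the P0 arrays was which genes differ when precursor division in the external granule layer is known to be reduced. A gene present in 3 copies instead of 2 may be transcribed in proportion to its copies, or less.

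The measurement was the log2 ratio of Ts1Cje over euploid signal, so 0 means no difference, and values of all probes of a gene were averaged on each array. Ts1Cje RNA was labelled with Cy5 on replicates 1 and 2 and with Cy3 on replicates 3 and 4. The first pair also had titles that begin with ASJ and the second pair titles that begin with ATJ, so dye and title series cannot be told apart. The 4 arrays held 18114, 22441, 22891 and 22368 probe values of 25344, and the SD of the log2 ratios was 1.01, 0.881, 0.932 and 1.07. Only ratios were analysed, so levels of marker genes could not be compared: of the cerebellar markers, Purkinje cell genes Calb1 and Pcp2 had a value on all 4 arrays, the granule precursor gene Atoh1 on 3, and Sox2 on none. Across 20636 genes and unnamed probes with a value on at least 3 arrays, none passed a Benjamini-Hochberg adjusted p of 0.05 in limma (0.0%), and the smallest adjusted p was 0.959. At an unadjusted limma p below 0.05, 733 (3.55%) were found, 317 higher and 416 lower in Ts1Cje. A linear model over all 28 arrays, with terms for genotype and age at each stage and fitted with limma, gave 984 (4.43%) for P0, with 56 of 73 three-copy genes above 0 and no adjusted p below 0.359. The statements below therefore concern values and counts over genes, and every single gene named and tested had an adjusted limma p of 0.959 or more at P0.

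The three-copy genes stood higher in the Ts1Cje cerebellum as a group. Of 167 annotated genes from Sod1 to the end of chromosome 16, 74 were matched to a probe through the platform annotation used here and 70 of them had values on at least 3 arrays. A three-copy gene whose probe carries no symbol there, or another one, such as Pcp4, was not analysed here as a member. The mean was above 0 for 54 of the 70 (77.1%), where the share over everything tested was 50.5%. Their median log2 ratio was 0.26, a ratio of 1.20, and the interquartile range of the genes ran between 0.05 and 0.45. On the separate arrays the median was 0.23, 0.28, 0.10 and 0.17, while that of all other genes lay between -0.03 and 0.00. All 4 arrays thus placed the three-copy genes above the rest, and the size of the shift depended on the arrays: without replicate 2 the median of the gene means was 0.15, and without each other array it was up to 0.32. Of 43 three-copy genes measured on all 4 arrays, 11 were above 0 on every array and 0 were below 0 on every array. The shares over all 13729 features measured on the 4 arrays were 6.05% above and 6.37% below. At an unadjusted limma p below 0.05, 7 three-copy genes were higher and 1 was lower, where the whole-array shares were 1.54% and 2.02%.

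**Figure D1:**
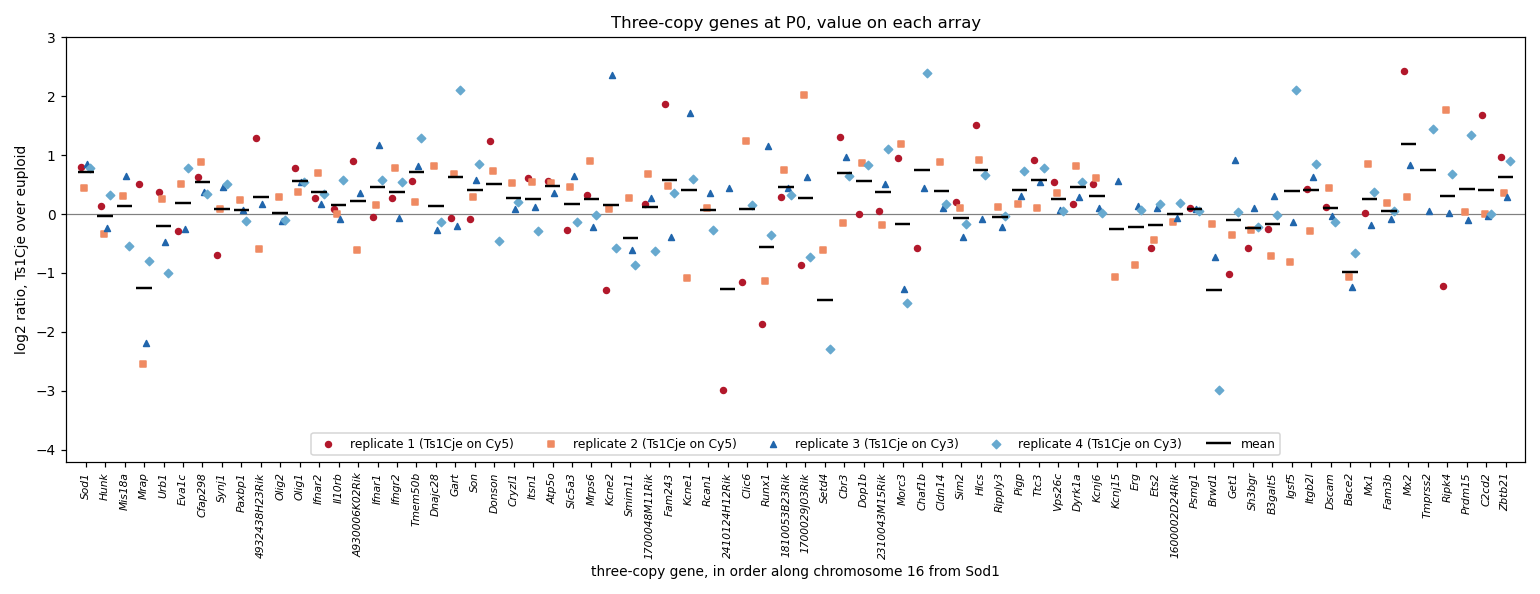
Log2 ratio of Ts1Cje over euploid (vertical axis) for the 74 three-copy genes on the array, in their order along chromosome 16 from Sod1 (left) to Zbtb21 (right). Red and orange symbols are replicates 1 and 2, dark and light blue symbols replicates 3 and 4, and the black bar is the mean. For 54 of the 70 genes tested the mean was above 0, and Sod1, at the left end, lay between 0.43 and 0.85.

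Sod1, at the start of the segment, encodes the cytosolic copper and zinc superoxide dismutase that removes superoxide. Its log2 ratio was 0.79, 0.43, 0.85 and 0.79 on replicates 1 to 4. All arrays were clearly above 0, with replicate 2 the lowest. The mean of 0.72 ± 0.19 (SD, n = 4) was a ratio of 1.64 (95% interval 1.20 to 2.24; unadjusted p = 0.00927, limma). Tmem50b, which encodes a small transmembrane protein, had log2 ratios of 0.55, 0.20, 0.82 and 1.29, a mean of 0.72 ± 0.46 (SD, n = 4) and a ratio of 1.64 (1.08 to 2.51). Zbtb21, a BTB and zinc finger transcription factor at the far end of the segment, had 0.97, 0.36, 0.28 and 0.91, a mean of 0.63 ± 0.36 (SD, n = 4) and a ratio of 1.55 (1.06 to 2.26). The Zbtb21 values are means of 2 probes, which read 1.67 and 0.28 on replicate 1. Sod1 and Zbtb21 mark the ends of the segment and Tmem50b lies in its proximal part, and every one of their values was above 0. The intervals of all 3 were wide and had lower bounds just above 1.

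The 250 bases before the transcription start of these 3 genes are shown as reference promoter sequence. That of Dnah11, on the chromosome 12 stretch with 1 copy, is shown beside them. Dnah11 stood higher than any three-copy gene measured on all arrays. From which copy a gene was transcribed was not measured. The sequences are those of RefSeq on build GRCm38.p6, written 5′ to 3′ on the gene's strand, and capitals mark each match to the GC box letters GGGCGG or its complement on the other strand.
Sod1 (chr16:90220512-90220761, plus strand): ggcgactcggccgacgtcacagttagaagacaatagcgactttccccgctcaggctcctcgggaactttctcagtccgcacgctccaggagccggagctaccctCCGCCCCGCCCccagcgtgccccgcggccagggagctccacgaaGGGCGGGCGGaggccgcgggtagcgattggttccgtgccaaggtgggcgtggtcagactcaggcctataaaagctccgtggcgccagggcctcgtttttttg
Tmem50b (chr16:91597681-91597930, minus strand): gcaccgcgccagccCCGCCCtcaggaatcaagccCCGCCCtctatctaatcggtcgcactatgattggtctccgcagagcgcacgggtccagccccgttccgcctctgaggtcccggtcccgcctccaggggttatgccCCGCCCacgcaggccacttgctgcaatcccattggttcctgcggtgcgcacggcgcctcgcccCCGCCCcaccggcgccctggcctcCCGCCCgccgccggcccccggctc
Zbtb21 (chr16:97962623-97962872, minus strand): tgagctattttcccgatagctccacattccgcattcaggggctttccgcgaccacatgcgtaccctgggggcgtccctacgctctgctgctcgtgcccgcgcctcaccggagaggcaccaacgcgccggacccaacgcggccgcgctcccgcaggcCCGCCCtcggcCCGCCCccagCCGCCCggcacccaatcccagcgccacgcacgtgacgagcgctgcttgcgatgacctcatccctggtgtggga
Dnah11 (chr12:118199044-118199293, minus strand): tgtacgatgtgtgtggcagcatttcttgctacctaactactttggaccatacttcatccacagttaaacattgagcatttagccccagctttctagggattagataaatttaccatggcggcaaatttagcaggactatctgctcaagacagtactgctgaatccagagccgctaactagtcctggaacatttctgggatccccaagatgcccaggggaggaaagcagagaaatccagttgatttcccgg
The Sod1, Tmem50b and Zbtb21 sequences held 4, 5 and 3 matches, which can overlap, and 26, 28 and 30 CpG dinucleotides. That of Dnah11 held 0 matches and 4 CpG dinucleotides. Promoters were listed for 55 of the 70 three-copy genes tested, and 36 of these genes (65.5%) had a GC box match in at least 1 promoter. The share over all 27025 genes with a listed promoter was 35.4%. Counted per promoter, the shares were 53.8% of 78 and 32.7% of 32851. The larger set holds genes whether or not they were tested on these arrays, and the share over tested genes alone was not counted. The letters CCAAT occurred for 36.4% of the three-copy genes and 37.5% of all genes, and TATAAA for 7.27% and 14.3%. Among the 10 listed genes that were above 0 on all 4 arrays, 8 had a GC box match. A match is a run of letters and was not tested as a binding site.

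Of the 10 listed three-copy metabolic genes, 9 were tested and 8 had a mean above 0, with a median of 0.48. Atp5o, a subunit of the mitochondrial ATP synthase, had 0.55, 0.53 and 0.36 on the 3 arrays that measured it, a mean of 0.48 ± 0.11 (SD, n = 3) and a ratio of 1.40. Hlcs, which attaches biotin to carboxylases, had 1.51, 0.92, -0.08 and 0.66, and Cbr3, a carbonyl reductase, had 1.31, -0.15, 0.98 and 0.64. Both were above 0 on 3 of 4 arrays. Gart, an enzyme of purine synthesis, had -0.07, 0.68, -0.21 and 2.11, so its mean of 0.63 ± 1.06 (SD, n = 4) rested on replicate 4. The only metabolic gene with a mean below 0 was B3galt5, a galactosyltransferase, at -0.17 ± 0.43 (SD, n = 4).

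All 6 three-copy interferon and cytokine receptor genes and interferon-induced genes had means above 0, with a median of 0.37. Ifnar2, a subunit of the type I interferon receptor, had 0.27, 0.69, 0.16 and 0.34. Its partner Ifnar1 had -0.06, 0.16, 1.18 and 0.58, and Ifngr2, of the type II receptor, had 0.26, 0.78, -0.07 and 0.54. Ifnar2 was above 0 on every array, and Ifnar1 and Ifngr2 on 3. The antiviral gene Mx2 had 2.43, 0.29 and 0.84 where it was measured, the highest mean of the segment at 1.19 ± 1.11 (SD, n = 3). None of the 6 had an unadjusted limma p below 0.05. Outside the segment, 17 genes that respond to interferon were tested, and 12 had a mean above 0 with a median of 0.21. At an unadjusted limma p below 0.05 none was higher and 2 were lower, where the whole-array shares were 1.54% and 2.02%. The 2 were Ifitm3, an antiviral membrane protein (-1.15, -0.95 and -0.48 on 3 arrays), and B2m, the light chain of class I histocompatibility molecules (-1.16, -0.65, -0.87 and -0.15). Ifitm1, an interferon-induced relative of Ifitm3 that the list did not hold, lay on the other side of 0, with 1.93, 0.40, 1.42 and 2.01.

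Transcription factors of the segment were divided, with means above 0 for 4 of 9 and a median of -0.04. Olig1, a basic helix-loop-helix factor of the oligodendrocyte lineage, had 0.78, 0.38, 0.54 and 0.55, a mean of 0.56 ± 0.17 (SD, n = 4) and a ratio of 1.48 (1.09 to 2.00; unadjusted p = 0.0216, limma). Its neighbour Olig2 had 0.28, -0.12 and -0.10. The Olig1 values were thus all above 0 and those of Olig2 spread around it. Runx1, a factor of blood formation, had -1.86, -1.13, 1.15 and -0.36, with the sign of replicate 3 opposite to the rest. Of 10 other oligodendrocyte genes tested outside the segment, 4 had a mean above 0, and Pdgfra, the receptor that marks oligodendrocyte precursors, had -0.25, -0.16, -0.56 and -0.35.

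Kinases, trafficking and other signalling genes of the segment had means above 0 for 8 of 12, with a median of 0.17. Dyrk1a, a kinase whose targets include NFAT factors, had 0.17, 0.82, 0.29 and 0.55, a mean of 0.46 ± 0.29 (SD, n = 4) and a ratio of 1.37 (0.972 to 1.94). Rcan1, a calcineurin inhibitor, had 0.10, 0.36 and -0.27, a mean of 0.06 ± 0.32 (SD, n = 3). So Dyrk1a was above 0 throughout while the Rcan1 values lay on both sides of it. Vps26c, of the retriever complex of endosomal recycling, had 0.55, 0.35, 0.07 and 0.05. Of the 12 two-copy calcineurin and NFAT genes tested, 3 had a mean above 0 and the median was -0.10, and none had an unadjusted limma p below 0.05.

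Chromatin, replication and RNA genes of the segment had means above 0 for 5 of 8, with a median of 0.24. Ttc3, a ubiquitin ligase, had 0.92, 0.10, 0.55 and 0.77 as the mean of its 2 probes, and on replicate 1 these probes read 2.69 and -0.85. Son, a splicing cofactor, had -0.09, 0.28, 0.58 and 0.85, where the negative value again joined a probe at 0.63 and one at -0.81. On replicate 1 the probes of each gene therefore differed by more than the range of the gene's means over the 4 arrays. Chaf1b, a subunit of chromatin assembly factor, had -0.58, 0.44 and 2.39. Brwd1, a bromodomain protein, had -0.17, -0.73 and -2.98 and was the gene with the lowest mean of those measured on 3 or more arrays, at -1.30 ± 1.49 (SD, n = 3).

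Channels, adhesion molecules and membrane proteases had means above 0 for 9 of 10, with a median of 0.24. Kcnj6, which encodes the inward rectifier potassium channel Girk2 of granule cells, had 0.50, 0.61, 0.10 and 0.01, a mean of 0.31 ± 0.29 (SD, n = 4) and a ratio of 1.24 (0.875 to 1.75). It was above 0 on all arrays and close to it on the last. Dscam, an adhesion molecule of axon guidance, had 0.11, 0.45, -0.03 and -0.14. Its probes had means of -0.02 and 0.21, and the probe with the higher mean was above 0 on every array. Bace2, a relative of the beta-secretase Bace1, was the exception of the group and the only three-copy gene with an unadjusted limma p below 0.05 on the low side: it had -1.07, -1.24 and -0.66, a mean of -0.99 ± 0.30 (SD, n = 3; unadjusted p = 0.0142, limma). Among genes with no listed role, Cfap298, a ciliary gene, had 0.62, 0.88, 0.37 and 0.33, and 1810053B23Rik had 0.29, 0.75, 0.44 and 0.33. Both were above 0 on every array.

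The rest of chromosome 16 did not share the shift. Of 483 genes tested between the centromere and Sod1, which are present in 2 copies, 46.8% had a mean above 0 and the median was -0.03. Over the 20 other chromosomes or parts with enough genes, medians lay between -0.03 and 0.03 and the share above 0 between 46.8% and 53.6%. The three-copy segment, at 0.26 and 77.1%, lay outside both ranges.

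**Figure D2:**
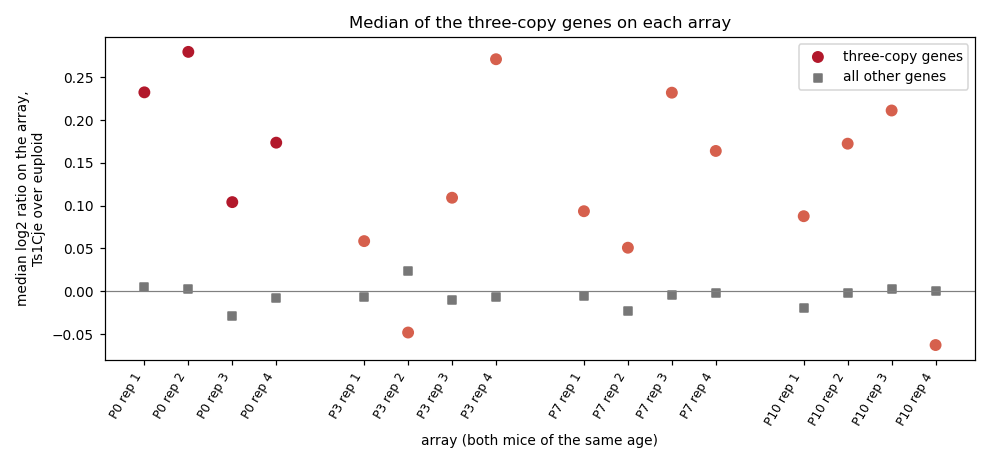
Median log2 ratio of Ts1Cje over euploid (vertical axis) of the three-copy genes (red circles) and of all other genes (grey squares) on each of the 16 arrays with both mice of the same age, in order of age. On the 4 P0 arrays the three-copy medians were 0.23, 0.28, 0.10 and 0.17, and on the 12 later arrays they ran between -0.06 and 0.27.

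On chromosome 12 the stretch with 1 copy holds Dnah11, Sp4, Sp8, Abcb5 and Itgb8. Dnah11, an axonemal dynein heavy chain that drives motile cilia, had 1.47, 1.92, 1.38 and 1.05. It was far above 0 on every array, with a mean of 1.46 ± 0.36 (SD, n = 4), a ratio of 2.75 (1.89 to 3.99) and an unadjusted limma p of 0.000966, although a copy is missing. Sp4, a zinc finger factor that binds GC boxes, had -0.95, -0.59, 0.10 and 0.39. Its values were below 0 under one dye orientation and above 0 under the other. Sp8, a related factor, had a value on 2 arrays only, -0.47 and -1.05, and Abcb5, a membrane transporter, had -0.56, 1.49 and 2.18. Itgb8, an integrin subunit, was measured on replicate 2 alone. Just outside the deleted stretch, Cdca7l, a Myc-binding nuclear protein, had 0.89, 2.08, 0.31 and 0.97, a ratio of 2.09 (1.16 to 3.75; unadjusted p = 0.0230, limma). The study reported the opposite direction for Cdca7l, and a decrease of Sp4, in the external granule layer dissected at P0. Those samples came from other mice and were measured on another platform, and the discrepancy was not tested here. Also beside the stretch, Ptprn2 had -0.83, 0.32, -0.45 and -0.40, and Ncapg2 had -0.21, 0.42 and -0.23. Of the 6 genes tested in or beside the stretch, Dnah11 and Cdca7l were the 2 above 0 on all 4 arrays.

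Dnah11 also belongs to a short list of genes outside the triplicated segment that the study found to differ at every stage, most of them raised. That list was drawn up on these samples, so its direction is no independent evidence. Of the 7 listed, 6 were matched to a probe. The gene 1700021N20Rik, which the study reported as lower at P0, was not among them. All 6 members tested had means above 0, with a median of 0.59, and the 4 measured on all arrays were above 0 on each. Hsfy2 had 0.28, 0.63, 0.61 and 0.56, Marchf1, a membrane-bound ubiquitin ligase, had 0.42, 0.98, 0.71 and 0.12, and Bpifb6 had 0.20, 0.40, 0.46 and 0.14. Phtf1 and Vmn1r216, a vomeronasal receptor, had 3 values each, between 0.30 and 0.88. Vomeronasal receptor genes are near copies of each other, and a probe may read more than 1 of them.

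Outside the segment, the 10 genes with a symbol, 4 values above 0 and the smallest limma p were Dnah11, Olfr374, Olfr247, Sertad4, Csnk1e, Saysd1, Gm5111, Spata4, Slc17a9 and Ifitm1. Csnk1e, a casein kinase of the circadian and Wnt pathways, had 1.42, 1.08, 1.27 and 0.54, a ratio of 2.11 (1.44 to 3.11). Slc17a9, the vesicular nucleotide transporter, had 0.97, 0.70, 0.52 and 0.99. Both stayed well above 0, although the 2 probes of Slc17a9 had means of 1.16 and 0.26. Saysd1 had 4.62, 1.41, 1.97 and 3.69, a mean of 2.92 ± 1.49 (SD, n = 4). Sertad4 had 1.04, 3.61, 2.07 and 2.77, a mean of 2.37 ± 1.09 (SD, n = 4). The value of Saysd1 on replicate 2 came from a different probe than the other 3. Olfr374 and Olfr247 are olfactory receptor genes, a family of near copies, and their probes may read more than 1 gene.

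The 10 such genes with 4 values below 0 were Acpp, Styk1, Gnl2, Trp63, Pcdhb17, Bloc1s2, 4930555A03Rik, Zfp54, Atp5c1 and Prorsd1. Acpp, a transmembrane acid phosphatase, had -1.15, -1.82, -2.06 and -1.68, a ratio of 0.312 (0.212 to 0.460) and the smallest unadjusted limma p among these, 0.000589. Atp5c1, the gamma subunit of the mitochondrial ATP synthase, had -0.71, -0.84, -0.69 and -1.07, a ratio of 0.564 (0.415 to 0.766), on the other side of 0 from the three-copy subunit Atp5o. Styk1, a kinase-like membrane protein, had -1.03, -0.78, -1.01 and -0.95. Trp63, a p53 relative needed for epithelia, lies on chromosome 16 before Sod1 and had -1.07, -1.51, -1.27 and -0.74. All of these were low on every array, by about the same amount for Styk1 and over a wider range for Acpp. These 20 genes were picked for lying on one side of 0 on every array, so their values are a description.

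**Figure D3:**
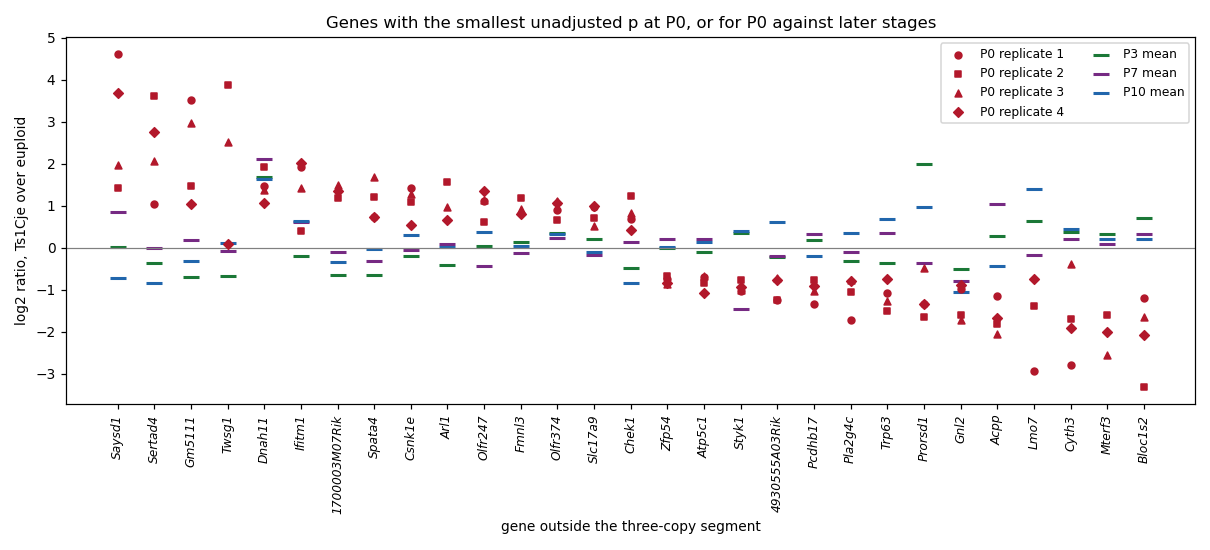
Log2 ratio of Ts1Cje over euploid (vertical axis) for the genes outside the three-copy segment with the smallest unadjusted limma p at P0, or for P0 against the later stages, ordered by their P0 mean. Red symbols are the P0 arrays and green, purple and blue bars the means of the P3, P7 and P10 arrays. Dnah11 lay between 1.05 and 1.92 at P0 with later means of 1.68, 2.11 and 1.64, while Acpp lay between -2.06 and -1.15 with later means of 0.28, 1.05 and -0.44.

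Genes of granule precursors and of their division showed no common direction. Of 34 cell cycle genes tested, 17 had a mean above 0 and 17 below, with a median of -0.01. The proliferation marker Mki67 had -0.08, 0.19 and 0.42, and Pcna, the replication clamp, had -0.23, -0.13, 0.06 and -0.01. Ccna2, the S phase cyclin, had -0.37, -0.59 and -0.57, with an unadjusted limma p of 0.0719. Cdk2, a cyclin-dependent kinase, had 0.32, 0.78, 0.49 and 0.21, with an unadjusted limma p of 0.0581. Of these, Ccna2 was below 0 and Cdk2 above 0 throughout, and Mki67 and Pcna had values on both sides. Cdc6, which loads the replicative helicase, had 0.74, 0.92, 0.04 and 0.90, and Mcm5, a subunit of that helicase, had -1.89, -1.16 and -5.18. At an unadjusted limma p below 0.05 the list thus held 1 gene higher and 1 lower of 34, close to the shares over all features of 1.54% and 2.02%. In bulk tissue, fewer cells of a type and less RNA per cell cannot be told apart.

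Of 12 granule precursor genes, 6 had a mean above 0 and the median was -0.01. Atoh1, the factor that defines these cells, had -0.49, 0.22 and 0.44. Barhl1, a homeobox gene acting after Atoh1, had 0.39, 0.81 and 1.04 and an unadjusted limma p of 0.0376, and Mycn, an effector of hedgehog signalling, had 0.10, 0.17 and 0.47. Pax6 had -0.68, -0.22 and -0.15, and Lmx1a had -0.81, -0.18, 0.02 and -0.84. Barhl1 and Mycn were thus above 0 wherever they were measured and Pax6 below it, while Atoh1 and Lmx1a had values on both sides. Of 13 granule neuron genes 7 had a mean above 0, and the median was 0.01.

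The hedgehog pathway gave the same picture, with means above 0 for 6 of 15 genes and a median of -0.01. Shh, the ligand, had -0.99, 1.72, -0.17 and -0.21. Ptch1, its receptor and also its target, had 1.16, -0.01, 0.24 and 0.41. Gli1, the factor that reads out the pathway, had 3.54, -4.70, -0.49 and 1.61. The Gli1 and Shh values ran in opposite directions on different arrays, and their SDs of 3.53 and 1.15 exceeded any difference between the groups. Ift88, a ciliary transport gene that the pathway needs, had -0.32, -0.34 and -0.49, all below 0. Of 21 Notch pathway genes, 10 had a mean above 0, the median was -0.04, and none had an unadjusted limma p below 0.05. Of 18 growth factor and receptor genes of granule cells 9 had a mean above 0, and of 15 apoptosis genes 8.

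A further list held two-copy genes that the study measured by PCR at P0, chosen for their pathways in cerebellar proliferation and differentiation. By PCR the study reported a slight but significant rise of Shh and Ptch1 in the Ts1Cje cerebellum, and a significant rise of the triplicated genes it tested. The PCR and array values were not compared by a test here. Of the 16 tested, 5 had a mean above 0, the median was -0.12, and none had an unadjusted limma p below 0.05. Pax2, a marker of inhibitory interneuron precursors, had 0.28, 0.68, 0.46 and 0.08 and was the only one above 0 on all 4 arrays. Npc1, a cholesterol transporter, had -0.84, -0.27, -0.39 and -0.12, and Grin1, the shared NMDA receptor subunit, had -0.00, -0.20, -0.50 and -0.19. Itga6 had probe means of 0.24 and -0.48 and Nfat5 probe means of -0.58 and 0.15, so for both the sign depended on the probe.

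**Figure D4:**
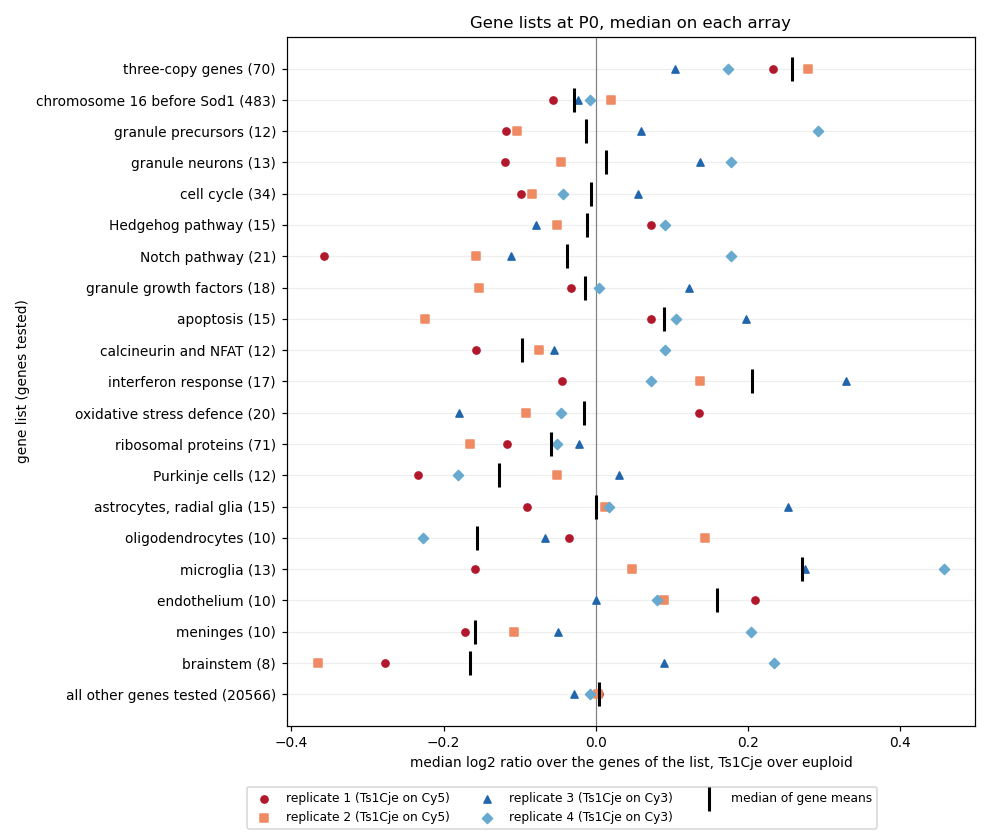
Median log2 ratio of Ts1Cje over euploid (horizontal axis) over the genes of each list (vertical axis, with the number tested) on each P0 array. Red and orange symbols are replicates 1 and 2, blue symbols replicates 3 and 4, and the black bar is the median of the gene means. The three-copy genes were above 0 on all 4 arrays, between 0.10 and 0.28, and the ribosomal protein genes below 0 on all 4, between -0.17 and -0.02.

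Ribosomal protein genes, which encode the protein part of the cytosolic ribosome, lay slightly below 0. Of 71 tested, 14 had a mean above 0 (19.7%, against 50.5% of everything tested) and 57 below, with a median of -0.06. Their medians on the 4 arrays were -0.12, -0.17, -0.02 and -0.05. Of 62 measured on all arrays, 8 were below 0 on each and 1 above, where the shares over all features were 6.37% and 6.05%. Rps7 had -0.30, -0.25, -0.20 and -0.33, Rpl27 had -0.16, -0.24, -0.34 and -0.24, and Rpl41, the 1 above 0, had 0.18, 0.24, 0.05 and 0.04. The shift was small but in the same direction on every array, and no gene of the list had an unadjusted limma p below 0.05. At P3, P7 and P10 the share with a mean above 0 was 41.4%, 60.9% and 32.4%.

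Markers of other cell types bear on any whole-tissue comparison. Of 13 microglia genes 11 had a mean above 0 (84.6%), with a median of 0.27, but their array medians were -0.16, 0.05, 0.28 and 0.46. C1qa, a complement gene of microglia, had 0.28, 0.32, 0.70 and 0.39, while Cx3cr1 and Aif1, which define these cells, had means of -0.14 ± 0.72 (SD, n = 3) and -0.22 ± 0.28 (SD, n = 4). The list median was 0.36 on replicates 3 and 4 together and 0.00 on replicates 1 and 2, so it came from the pair with Ts1Cje on Cy3. Of 12 Purkinje cell genes 3 had a mean above 0 and the median was -0.13. Foxp2, a Purkinje cell transcription factor, had -0.30, -0.10, -0.52 and -0.55, and Calb1, the calcium buffer calbindin, had -0.07, -0.10, 0.13 and 0.29. Pcp2 had 0.17, 0.02, 0.03 and 0.01. Foxp2 was thus below 0 on every array, Pcp2 slightly above 0 on every array, and Calb1 on both sides. Medians were 0.00 for 15 astrocyte and radial glia genes, 0.16 for 10 endothelial genes, -0.16 for 10 genes of the meninges, -0.19 for 6 of the choroid plexus and -0.16 for 8 of the brainstem, and 0.13 for 4 of red blood cells and 0.08 for 5 of inhibitory neurons. No marker gene of those 7 lists had an unadjusted limma p below 0.05. Of 20 genes of the defence against oxidants other than Sod1, 9 had a mean above 0, and Prdx6, a peroxiredoxin, had -3.39, -0.90, -0.44 and -1.76. The part of cell composition in the values above was not tested.

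Sex-linked genes differed on single arrays. Xist, the RNA of the inactive X chromosome in females, had -4.63, 3.67 and 1.27 on replicates 1, 2 and 4 and no value on replicate 3. Replicate 1 was thus strongly lower, and replicates 2 and 4 higher, in the Ts1Cje animal. The Y-linked gene Kdm5d had 0.95, -2.05, 0.62 and 0.57, on the other side of 0 from Xist on replicates 1 and 2 and on the same side on replicate 4. Zfy1, also Y-linked, had 0.79, -0.05, -2.05 and 0.72, and Eif2s3y had 0.55, 0.14, -0.06 and -0.48. The sign of these genes differed between arrays, so their means over the 4 arrays describe none of them.

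Dye orientation, or title series, separated the arrays. The correlation of gene values across genes was 0.16 between replicates 1 and 2 and 0.10 between replicates 3 and 4, but between -0.11 and -0.08 for the 4 pairs of opposite orientation. These are descriptions over genes of the same arrays, not independent replicates. In a limma fit with a dye term, 0 of 20636 passed the adjusted p (0.0%) and 1822 (8.83%) had an unadjusted p below 0.05 for dye, against 1109 for genotype in the same fit. The means of the 2 orientations had opposite signs for 42.9% of three-copy genes, against 55.6% of everything outside the segment. Of the 70 three-copy genes, 36 (51.4%) had both means above 0 and 4 (5.71%) both below, against 21.8% and 22.6% of the other 20566. Within the first orientation the three-copy median was 0.28, and within the other 0.16. For 653 genes with 2 probes that each had 4 values, the 2 probe means differed by a median of 0.30, and their correlation across genes was -0.06.

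**Figure D5:**
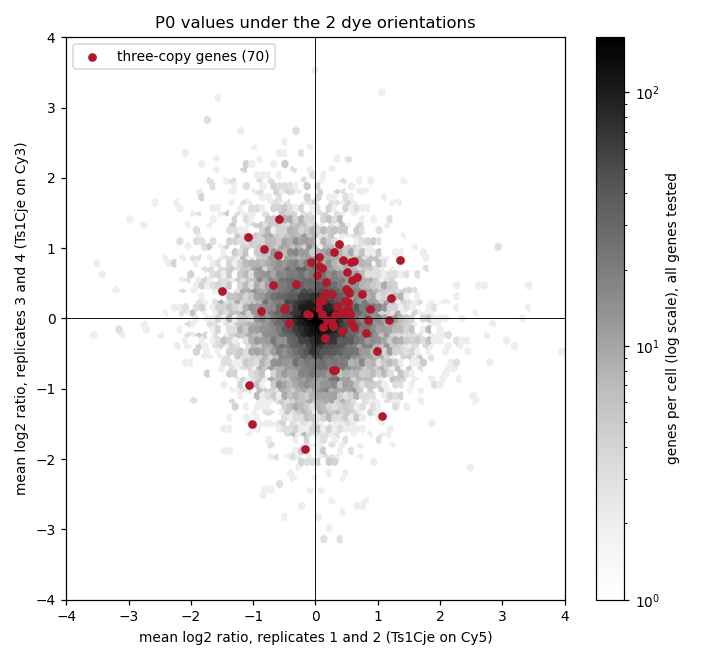
Mean log2 ratio of Ts1Cje over euploid on replicates 1 and 2 (horizontal axis, Ts1Cje on Cy5) and on replicates 3 and 4 (vertical axis, Ts1Cje on Cy3). Grey cells count all genes tested on a log scale and red points are the 70 three-copy genes, of which 36 lie at the upper right and 4 at the lower left. Axes stop at 4 and -4, which leaves out 100 other genes.

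Whether the P0 differences were particular to birth was tested on the 16 arrays with both mice of the same age, 4 at each of P0, P3, P7 and P10, as the P0 mean minus the mean of the later stages. Of 19913 genes and probes, 0 passed the adjusted limma p (0.0%), and 454 were higher (2.28%) and 419 lower (2.1%) at P0 at an unadjusted p below 0.05. For the three-copy genes the median of this difference was 0.06 over 69 genes, with 2 higher and 2 lower at that threshold. These counts were close to the shares over all features. The higher ones were Hlcs and Cbr3, with differences of 0.83 and 0.78. The lower ones were Brwd1, with 3 values at P0, and Mrap, an accessory protein of melanocortin receptors, at -1.64 and -1.28. Each of the 4 had an adjusted limma p of 0.9995, so they are a description. Single stages gave three-copy means above 0 for 77.1% of genes at P0, and for 66.7%, 69.6% and 63.5% at P3, P7 and P10, with medians of 0.26, 0.14, 0.15 and 0.12. Sod1 had means of 0.72 at P0 and 0.61, 0.93 and 1.30 later, and the difference of -0.23 had an interval of -1.04 to 0.58.

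The smallest unadjusted p for P0 against later stages belonged to Bloc1s2, a subunit of a complex of lysosome-related organelles. It had -1.19, -3.32, -1.66 and -2.09 at P0, against means of 0.71, 0.34 and 0.20 at P3, P7 and P10, a difference of -2.48 (-3.34 to -1.63; adjusted p = 0.216, limma). Mterf3, a regulator of mitochondrial transcription, had -1.60, -2.56 and -2.02, against later means of 0.33, 0.09 and 0.20, and 1700003M07Rik had 1.19, 1.5 and 1.35, against -0.64, -0.10 and -0.35. All P0 values of these genes lay on one side of the later means, and Mterf3 and 1700003M07Rik also had an adjusted limma p of 0.216. Chek1, the checkpoint kinase of DNA replication, had 0.69, 1.24, 0.84 and 0.41, against later means of -0.48, 0.14 and -0.85, a difference of 1.19 (0.58 to 1.80). Twsg1, which modulates bone morphogenetic protein signals, had 3.88, 2.51 and 0.08 on replicates 2 to 4, against later means of -0.68, -0.08 and 0.10, and passed the adjusted limma p only without replicate 4 (0.0192). Arl1 and Fmnl3 stood higher, and Lmo7, Cyth3 and Pla2g4c lower, at P0, with differences between -2.32 and 1.17 and adjusted limma p of 0.604 or more.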

How the data were processed

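Total RNA of single cerebella was reverse transcribed, coupled to Cy3 or Cy5 and hybridised as pairs of mice to spotted mouse oligonucleotide arrays. The authors read median spot intensities with GenePix, subtracted background, removed control, irregular and dim spots, and normalised each array by local LOWESS in R. Each deposited log2 value set Cy5 against Cy3 signal, per the labels, and was given the sign of Ts1Cje minus euploid here. No new normalisation was applied.

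Of 25344 probes, 20626 had 1 gene symbol in the platform annotation, 0 had several and 4718 had none. Symbols were updated to RefSeq names (GRCm38.p6), by accession for 15685 probes, and 257 Actb control spots were left out. Probes of a gene were averaged on each array. Genes and unnamed probes with values on at least 3 of the 4 arrays were tested with limma 3.58.1 (intercept, eBayes) in R 4.3.3, with Benjamini-Hochberg adjustment over all of them and a threshold of 0.05. One further fit had a term for dye, and another took the 16 same-stage arrays with 1 mean per stage, for features with at least 3 values at P0 and 8 later. Tables and plots used Python 3.11.15. The median SE of a log2 ratio was 0.28, and the number of arrays limits the precision. An exact sign-flip test over the arrays cannot give a two-sided p below 0.125. The procedures were tested on simulated data.

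Members and gene lists were chosen with earlier results of these data known. Named by rule were three-copy genes on one side of 0 on all 4 arrays, the 10 higher and 10 lower other genes of that kind with the smallest limma p, the genes of the chromosome 12 and study lists, up to 4 genes of every other list and 5 in each direction for P0 against later stages by limma p, and Xist. Other three-copy genes were named as members, and further markers, such as Mki67, Pcna, Atoh1, Mycn, Calb1, Pcp2, Cx3cr1, Aif1 and the ribosomal genes, after their values were seen. The study identified each mouse by litter and pup. The litters of the mice on these arrays are not in the labels and were not used here. The p-values of the main P0 fit measure the spread between the 4 arrays. That spread holds the difference between dye orientations, or title series, as well as that between pairs of mice. For the 6907 features tested on 3 arrays, the orientations were not balanced. A dye effect therefore does not cancel in the mean of those features, among them Bace2, Brwd1, Mx2, Barhl1 and Ccna2. Alternatives were the study's kind of ANOVA over 28 arrays, array weights, scaling, no moderation, 1 probe per gene, other limits on missing values, a dye term, and leaving out each array.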

Additional observations from a re-analysis of the deposited data

Results flagged for a closer look

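On 4 of 137 genes and gene lists examined, 1 array stood far from the other 3 at P0, and chance flags about 1 in 20. Sod1 had 0.43 on replicate 2, with the others between 0.79 and 0.85. Dtx1, a ubiquitin ligase of the Notch pathway, had 0.0843 on replicate 3, with the others between -0.42 and -0.34. Ntrk2, the receptor of brain-derived neurotrophic factor, had -0.43 on replicate 3, with the others between 0.77 and 0.97. Hoxb3, a homeobox gene of the hindbrain, had -1.95 on replicate 2, with the others between 0.04 and 0.39.

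For 3 genes every array at P0 lay on one side of 0 and every array of a later stage on the other. Saysd1 had a mean of 2.92 at P0, against -0.72 at P10, where its values ran between -1.50 and -0.02. Pax2 had 0.38 at P0, against -0.21 at P7 (-0.47 to -0.03). Chek1 had 0.80 at P0, against -0.48 at P3 (-1.11 to -0.24) and -0.85 at P10 (-1.38 to -0.17). Saysd1 had been named for lying on one side of 0 at P0, and Chek1 for differing from the later stages. The share over all features with such a pattern was not counted, so these 3 genes are a description. The differences between these pairs of stages were not tested.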

How the results depend on the processing

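Of the 20636 features, 733 had an unadjusted limma p below 0.05. The count was 1109 with a dye term, 464 with values required on all 4 arrays, and between 701 and 838 when 1 array was left out. The dye term itself gave 1822, and between 1162 and 1602 with 1 array left out, the lowest being without replicate 1, with fewer features tested in each case. No setting gave a gene past the adjusted p for genotype at P0. For P0 against later stages the count was 0, and between 0 and 1 with 1 array left out, the 1 being Twsg1 without replicate 4, at an adjusted limma p of 0.0192. The three-copy median of 0.26 was between 0.15 and 0.32 with 1 array left out, lowest without replicate 2, and 0.16 within replicates 3 and 4. The count of three-copy genes with a mean above 0, 54 of 70, was 33 of 43 with values on all 4 arrays and between 49 and 54 with 1 array left out. Of 1930 values of 155 named genes under the alternatives, 35 in 25 genes had the opposite sign, and the cause was not tested. Part of this count was fixed beforehand. Settings such as no moderation leave the mean of a gene as it was. Genes named for lying on one side of 0 on all 4 arrays keep their sign when 1 array is left out. The count is therefore no measure of robustness. Each value is already a difference within the pair of mice on 1 array. Beyond that, no paired analysis was possible because the labels carry no replicate numbers by which arrays could be blocked. The ratios of a two-colour array hold no level, so signal over background could not be compared.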
